A study of Colocasia esculenta with 4 samples.

Results

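Divergent gene pairs are neighbours that lie head to head, the left gene on the minus strand and the right gene on the plus strand, so that both are transcribed away from the stretch between them. In the taro annotation 144 such pairs, made of 288 different genes, met the criteria used here, out of 10944 pairs of adjacent genes in 6 linkage-group regions and 28695 annotated genes in all. The regions were LG03 up to base 186898486, LG05 from base 8000001, LG07 up to base 112416047, and the whole of LG09, LG11 and LG12. A pair was a member if 0 to 5000 bp lay between the end of the left gene and the start of the right gene. Both genes also had to have at least 2 exons after overlapping exons were merged, and a total intron length of 501 to 19999 bp. The regions were chosen by read counts, as the linkage groups or parts of them where reads were counted, so the share of detected genes in them is a description and no test was made of it. Counts played no part in choosing the pairs within the regions. The same criteria gave 442 convergent pairs (tail to tail, plus strand on the left and minus strand on the right) and 537 same-strand pairs, which serve as the comparison.

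Genes that lie head to head share the stretch that holds both of their transcription starts. A short stretch of this kind can act as a bidirectional promoter, in which bound factors and open chromatin serve transcription on both sides. In Arabidopsis, neighbouring genes are on average weakly co-expressed. Convergent genes share only the stretch in which both transcripts end, and same-strand neighbours set the end of the upstream gene against the start of the downstream gene.

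The plant was taro, Colocasia esculenta, an aroid grown for its starchy corms, of the cultivar Bing Liang, and the tissue was the apical meristem with its youngest leaves and leaf primordia. There were 4 libraries, labelled as replicates of a single group, with no treatment, genotype or second tissue. Polyadenylated RNA was sequenced from 1 end with a strand-specific kit, and 22252534 to 25434148 counts were assigned to genes per library. Whether each library stands for a plant of its own is not stated, so p-values may measure technical spread alone. Replicate 4 stood apart from the others in many of the genes below, and results that rest on it are given by library. Genes are given by identifier, position and structure, since the files hold no names, products or sequences for them, and markers of the tissue could not be looked up. Positions follow the count files (counted from 1) on the Lachesis-scaffolded assembly named in their headers, for which no build name is given.

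Head-to-head neighbours rarely lay close together. Of 765 divergent pairs whose genes both met the exon and intron criteria, 144 (18.8%) had a gap of 0 to 5000 bp. Of 845 convergent pairs, 442 (52.3%) did, and of 1880 same-strand pairs, 537 (28.6%). The median gap, over pairs that did not overlap, was 24606 bp for divergent, 4263 bp for convergent and 15690.5 bp for same-strand pairs. Within 500 bp lay 12 divergent, 64 convergent and 40 same-strand pairs, and divergent pairs were the fewest in each of the 5 gap bins plotted. Without the exon and intron criteria, divergent and convergent pairs were equally common (2553 and 2551), and 16.8% and 38.6% of them had a gap of 0 to 5000 bp. Divergent and convergent pairs alternate along a sequence, so their near-equal totals follow from the geometry, while their gaps do not.

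The order of the 3 orientations was the same in the rest of the annotation. On the unplaced contigs 25.4% of 114 divergent, 64.2% of 148 convergent and 50.2% of 307 same-strand pairs had a gap of 0 to 5000 bp. On the linkage-group sequence outside the 6 regions, which is what the choice by read counts left over, these shares were 14.7% of 1012, 50.2% of 1048 and 28.2% of 2445. These are counts of annotated gene models, whose ends need not be the true ends of transcripts.

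**Figure D1:**
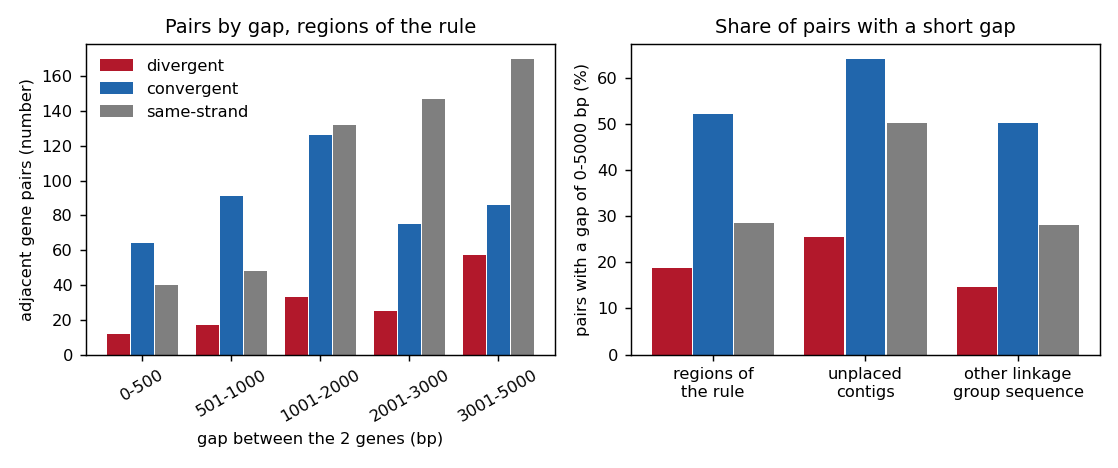
Left, number of adjacent gene pairs meeting the exon and intron criteria in the 6 regions, by gap in bp and orientation. Right, the share of such pairs with a gap of 0 to 5000 bp in the 6 regions, on unplaced contigs and on the remaining linkage-group sequence; divergent pairs have the lowest share in each, 18.8%, 25.4% and 14.7%.

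The members had gaps of 171 to 4972 bp, with a median of 2352 bp. In no pair did another gene reach across the gap. The next divergent pair beyond the limit, EVM0016121 and EVM0004284 on LG09, had a gap of 5019 bp. The 288 genes had medians of 5 exons, 1391 bp of exon sequence and 3484 bp of intron. The 884 genes of the convergent pairs had 6 exons, 1642 bp and 3566.5 bp. Exon numbers of the left and right gene were nearly unrelated within divergent pairs (Spearman's correlation 0.0186 over 144 pairs), and 12 pairs had genes with the same exon number. In 2 pairs the genes had the same exon number and exon lengths within 10% of each other, and these are described below. LG07 and LG12 held 30 members each, LG09 28, LG03 26, LG11 17 and LG05 13.

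Most genes of divergent pairs were expressed in the apex. Detection meant 1 CPM or more, that is, counts scaled to the library total, in all 4 libraries. Of the 288 genes 245 (85.1%) were detected, against 81.1% of the 5701 other genes of the regions that met the exon and intron criteria. The median level of the detected genes was 35.0 ± 1.1 RPKM in divergent pairs and 34.4 ± 0.46 RPKM in those other genes (SD of the libraries' medians, n = 4). RPKM corrects reads for the exon length of the gene and for library depth, so it allows genes of different length to be compared. The 10th and 90th percentiles of the mean level were 6.45 and 145 RPKM in divergent pairs and 6.23 and 159 RPKM in the other genes. No count was found in any library for 22 of the 288 genes.

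Both genes were detected in 104 of the 144 divergent pairs (72.2%), 1 gene in 37 (25.7%) and neither in 3 (2.08%). The left genes were detected in 85.4% of pairs and the right genes in 84.7%, and the product of these shares is 72.4%. Joint detection in divergent pairs was thus no more frequent than the detection of their genes taken separately. The corresponding values were 82.1% against a product of 81.0% in convergent pairs, and 73.0% against 70.5% in same-strand pairs. Neither gene was detected in 2.04% of convergent and 5.03% of same-strand pairs.

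At equal gaps, joint detection was less frequent in divergent than in convergent pairs and close to that in same-strand pairs. The other orientations were weighted to the gaps of the divergent pairs, in bins of 0 to 500, 501 to 1000, 1001 to 2000, 2001 to 3000 and 3001 to 5000 bp. With at least 1 CPM asked of both genes in a single library, the divergent share was 75.7%, 74.3%, 72.9% and 74.3% in replicates 1 to 4. The convergent share was 83.1%, 83.1%, 82.7% and 82.2%, and the same-strand share 76.0%, 76.6%, 76.3% and 74.4%. The divergent share was below both others in 4 of 4 libraries, by less than the SD of its own values in some libraries for same-strand pairs. The libraries measure the same pairs, and 4 of them cannot give a two-sided exact p below 0.125. With detection asked of every library, the difference from convergent pairs was -8.45 percentage points and that from same-strand pairs -0.117. The share of genes detected, each gene taken separately and weighted in the same way, was 85.1% in divergent, 89.2% in convergent and 83.6% in same-strand pairs. Single genes were thus also detected less often in divergent than in convergent pairs.

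**Figure D2:**
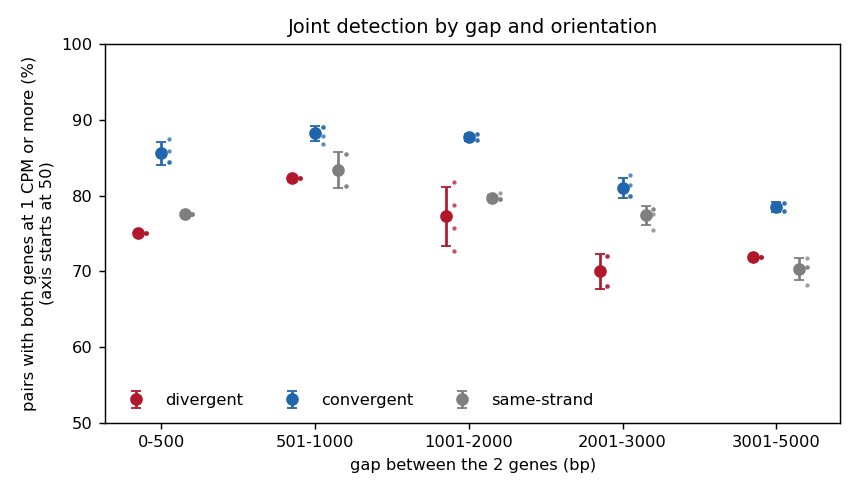
Share of pairs with both genes at 1 CPM or more in a library, by gap in bp and orientation; large points are means over the 4 libraries with SD, small points single libraries, and the axis starts at 50%. Convergent pairs lie highest in all 5 gap bins, while divergent and same-strand pairs change order between bins.

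The difference from convergent pairs moved with gene structure and with a single linkage group. Shares by exon number and by linkage group are over all gaps of 0 to 5000 bp, without weighting. Differences in percentage points are at equal gaps. Among pairs in which the gene with fewer exons had 2 or 3, both genes were detected in 62.9% of 62 divergent and 80.1% of 166 convergent pairs. Where it had 4 to 10 exons, the shares were 78.5% of 79 and 83.2% of 262. On LG05, 4 of 13 divergent pairs (30.8%) and 74.5% of 47 convergent pairs were jointly detected. On the other 5 linkage groups the divergent share was 66.7% to 88.2% and the convergent share 74.5% to 87.8%. The divergent share was the lower on LG03, LG07, LG09 and LG12 and the higher on LG11, at 88.2% of 17 against 74.5% of 55 pairs. Without LG05, chosen for omission after its values were seen, joint detection was 76.3% of 131 divergent pairs, the difference from convergent pairs -5.94 percentage points and that from same-strand pairs 2.93. On unplaced contigs, too, the divergent share was the higher: 22 of 29 divergent pairs (75.9%) were jointly detected, 4.48 percentage points above convergent pairs at equal gaps. The divergent share was thus the lower on LG03, LG05, LG07, LG09 and LG12, and the higher on LG11 and on the contigs. Without weighting by gap, the convergent share on contigs was 74.7% of 95 pairs. Other settings moved the difference from convergent pairs in the regions both ways. It was -3.91 percentage points at gaps of 0 to 1000 bp and -19.8 without the exon and intron criteria. Without genes that shared a run of exon lengths with another gene it was -13.7. Every cutoff for detection was on CPM or counts, which do not allow for exon length. Genes of divergent pairs had less exon sequence than those of convergent pairs (medians of 1391 and 1642 bp). How much of the difference in joint detection goes with this was not tested.

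In the 37 pairs with a single detected gene, the detected gene was on the left in 19 and on the right in 18. Its median level was 30.7 RPKM, against 0.00817 RPKM for the undetected partner, whose highest mean was 1.58 RPKM. That highest partner, EVM0001507 on LG07, was above its own detected neighbour EVM0001683 (0.901 RPKM), because detection was set on CPM, which does not allow for exon length; this pair was named after its values were seen. The partner had no count in 18 pairs, 1 to 10 counts over all libraries in 7 and more than 10 in 12. The undetected genes were the smaller models, with medians of 3 exons and 729 bp of exon sequence, against 6 exons and 1462 bp for the detected ones. A shorter gene needs a higher RPKM to reach the CPM cutoff, so this contrast may be in part built in. How much of it comes from the cutoff was not tested. The detected gene had more exons in 25 pairs and fewer in 8. The gap did not set these pairs apart, with a median of 2361 bp against 2324.5 bp where both genes were detected.

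Among pairs in which the partner had no count, the highest detected gene was EVM0028176, which lies beside EVM0002787 on LG07, 3277 bp apart. EVM0028176 (87684534 to 87687194, minus strand, 2 exons) had 371, 420, 375 and 373 RPKM in replicates 1 to 4. EVM0002787 (87690472 to 87691317, plus strand, 3 exons, 303 bp of exon sequence) had 0 counts in all 4 libraries. The limit set by such a 0 is 3 counts per library, which for this gene averages 0.425 RPKM and covers counting error only, so EVM0028176 was at least 903-fold higher. On LG12, 3545 bp apart, EVM0017342 (74670601 to 74672811, plus strand) had 190, 196, 167 and 160.0 RPKM, and its partner EVM0009894 (74665600 to 74667055, minus strand) had 0 counts, a difference of at least 825-fold. In both pairs all 4 libraries gave the same picture. Wide differences also occurred beside partners with a few counts, in pairs named after their values were seen. EVM0020332 on LG12 averaged 309 RPKM beside EVM0023487 at 0.0954 RPKM. On LG09, EVM0015044 averaged 299 RPKM beside EVM0021483 at 1.12 RPKM, and EVM0001171 averaged 350.4 RPKM beside EVM0010336 at 1.34 RPKM. EVM0015044 and EVM0001171 share a run of 4 exon lengths. EVM0001171 also shares all 6 of its exon lengths with EVM0003686, a gene on LG09 outside the divergent pairs. The counts of EVM0003686 were 100.1%, 100.2%, 108.1% and 100.1% of those of EVM0001171 in replicates 1 to 4. The levels of these genes are uncertain where reads matched more than 1 of them, and whether they share reads was not tested.

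The 3 pairs with neither gene detected were named after their values were seen. EVM0014661 and EVM0016669 on LG05 had no count at all. EVM0016927 and EVM0011166, also on LG05, reached 0 and 0.513 RPKM on average. EVM0009142 and EVM0013672 on LG09 reached 0 and 0.00585 RPKM.

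Where both genes of a divergent pair were detected, their levels were unrelated. Over the 104 pairs Spearman's correlation of the RPKM of the left and right gene was -0.0559, -0.0357, -0.0706 and -0.0149 in replicates 1 to 4. It was -0.0555 ± 0.0054 over 363 convergent and 0.0648 ± 0.0241 over 392 same-strand pairs (mean and SD over libraries). These correlations are descriptions across pairs, which share libraries, and same-strand pairs can share a gene with each other. The higher gene of a divergent pair had a median of 63.2 RPKM and the lower gene 19.5 RPKM. The left gene was the higher in 50 pairs and the right gene in 54, and in 94 pairs the order was the same in all 4 libraries. The higher gene had more exons in 49 pairs and fewer in 47.

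**Figure D3:**
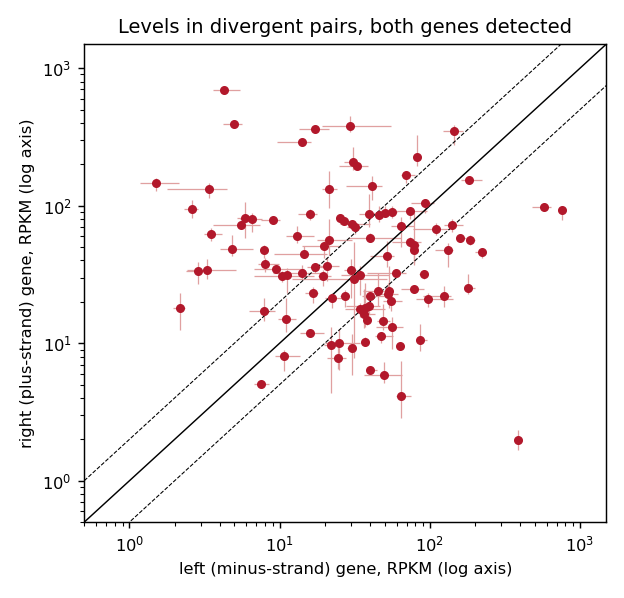
Mean RPKM of the left (minus-strand) and right (plus-strand) gene in the 104 divergent pairs with both genes detected, on log axes; each point is a pair, bars span the lowest to the highest library, the solid line marks equal levels and the dashed lines a 2-fold difference. The points form a cloud with no trend along the diagonal, and 16 pairs lie within 2-fold in every library.

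The size of the difference within a pair was also similar between orientations. The median absolute log2 ratio was 1.44, 1.54, 1.54 and 1.45 in replicates 1 to 4 of the divergent pairs. Its mean of 1.49 ± 0.05 corresponds to 2.81-fold. It was 1.65 ± 0.04 (3.15-fold) in convergent and 1.63 ± 0.03 (3.10-fold) in same-strand pairs (SD, n = 4). Weighted to equal gaps the values were 1.51 ± 0.06, 1.71 ± 0.10 and 1.63 ± 0.07. The share of pairs within 2-fold in every library was 15.4% in divergent (16 pairs), 17.6% in convergent and 23.2% in same-strand pairs. More than 10-fold in every library were 11 divergent pairs (10.6%), 15.4% of convergent and 14.0% of same-strand pairs. The divergent pairs thus had slightly smaller median differences without having more pairs at like levels.

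Differences within pairs were tested with edgeR's quasi-likelihood test on counts, with library as a block, and adjusted over all 5273 adjacent pairs of the regions with both genes detected. Of the 104 divergent pairs 93 (89.4%) had genes that differed in level per exon length, beside 84.2% of all pairs tested. More than 2-fold differences, tested with edgeR's glmTreat, were called in 63 divergent pairs (60.6%), beside 58.6% of all pairs tested. In the convergent pairs the shares were 87.3% and 60.1%, and in the same-strand pairs 87.8% and 59.7%. The shares of divergent pairs lay near the background. In 26 of the 63 pairs the left gene was the higher and in 37 the right gene. In 11 divergent pairs no difference was called, with fitted log2 ratios of up to 0.72 in size, which does not show that their genes had equal levels.

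**Figure D4:**
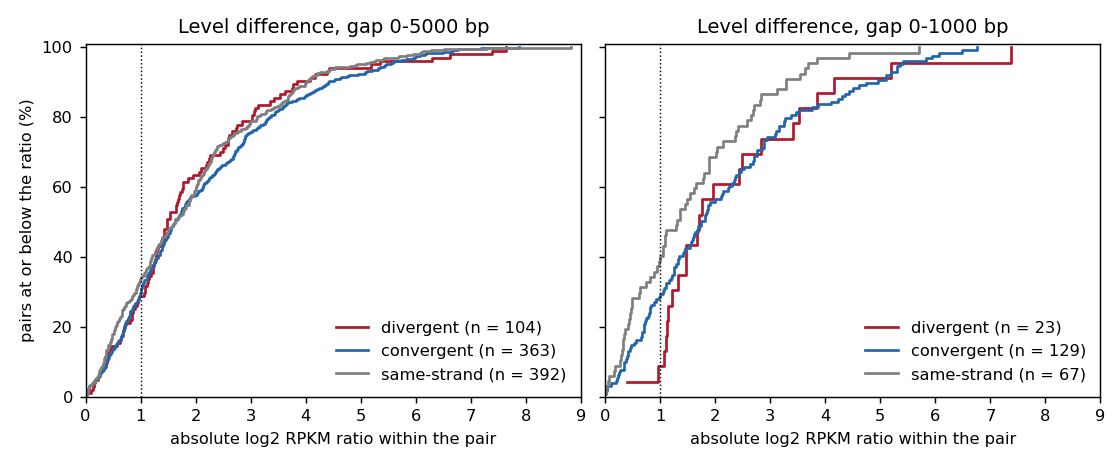
Cumulative share of pairs by the absolute mean log2 RPKM ratio between their genes, for all pairs with a gap of 0 to 5000 bp (left) and those with 0 to 1000 bp (right); the dotted line marks 2-fold. The curves nearly coincide on the left, while on the right the same-strand curve lies above the divergent and convergent ones.

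Within the limit of 5000 bp, a shorter gap did not bring the levels of divergent genes closer. Over the 23 pairs with a gap of 0 to 1000 bp the median absolute log2 ratio was 1.75 ± 0.05, and 1 pair was within 2-fold in every library. All 23 were called different and 16 differed by more than 2-fold by the edgeR tests above. Over all 104 pairs, Spearman's correlation between gap and absolute log2 ratio was -0.0926. At this gap the calls were 86.8% and 64.3% of 129 convergent and 86.6% and 52.2% of 67 same-strand pairs, against 100% and 69.6% of the divergent ones. The median ratio of the convergent pairs was 1.76 ± 0.13, but 24 of them (18.6%) were within 2-fold in every library, against 4.35% of the divergent pairs. The 67 same-strand pairs had a smaller ratio (1.24 ± 0.04). It was confined to the 29 pairs at gaps of 0 to 500 bp, with a ratio of 0.977 ± 0.126 and a correlation of levels of 0.731 ± 0.054. At these gaps the correlation was -0.258 ± 0.135 over 9 divergent and -0.242 ± 0.031 over 53 convergent pairs. The 38 same-strand pairs at 501 to 1000 bp had a ratio of 1.68 ± 0.08 and a correlation of -0.0635 ± 0.0275. There the ratio was 1.63 ± 0.07 in 14 divergent and 1.61 ± 0.21 in 76 convergent pairs. Whether same-strand pairs with gaps of 0 to 500 bp are pieces of a single transcript was not tested.

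The closest of all members showed the second widest difference among the 104 pairs with both genes detected. EVM0006629 (LG03, 181739090 to 181745147, minus strand, 8 exons) and EVM0013376 (181745319 to 181750675, plus strand, 5 exons) lie 171 bp apart. EVM0006629 had 4.08, 3.57, 3.89 and 5.43 RPKM in replicates 1 to 4. EVM0013376 had 649, 693, 714 and 728 RPKM. The groups of values lie far apart in every library: the right gene was 166-fold higher (fitted log2 ratio -7.37 for left over right, adjusted p = 6.9e-06 for more than 2-fold, edgeR glmTreat).

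The next closest pairs lie on LG07 and resemble each other. EVM0022559 (92874486 to 92891424, minus strand, 7 exons) and EVM0018316 (92891621 to 92904530, plus strand, 19 exons) are 196 bp apart. EVM0000834 (92185398 to 92189785, minus strand, 5 exons) and EVM0003620 (92190019 to 92202963, plus strand, 19 exons) are 233 bp apart. Their right genes start 701602 bp from each other and share a run of 17 consecutive exon lengths, and their left genes share a run of 3. The right genes had 37.1, 34.4, 34.7 and 33.4 RPKM (EVM0018316) and 33.4, 30.9, 31.5 and 27.7 RPKM (EVM0003620) in replicates 1 to 4. The left genes had 7.77, 6.72, 8.67 and 14.5 RPKM (EVM0022559) and 9.44, 6.73, 8.17 and 17.0 RPKM (EVM0000834). Both left genes were highest in replicate 4 and both right genes lowest there, so the left-to-right log2 ratio was -1.20 and -0.71 in replicate 4, against -2.36 to -2.001 and -2.20 to -1.82 in the other libraries. The counts of EVM0003620 were 91.5%, 91.1%, 92.3% and 84.1% of those of EVM0018316. The counting gave multi-mapped reads to every place they matched, so these levels are uncertain, and whether the pairs share reads was not tested. The 2 pairs may therefore not be independent observations.

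Other wide differences came with wider gaps. EVM0019050 (LG09, 5394007 to 5398897, minus strand, 11 exons) had 366, 392, 386 and 411 RPKM. EVM0005996 (5403278 to 5412632, plus strand, 7 exons), 4380 bp away, had 1.67, 2.05, 2.33 and 1.84 RPKM. This was the widest difference among the 104 pairs with both genes detected, 199-fold (log2 ratio 7.62, adjusted p = 6.9e-06 for more than 2-fold, edgeR glmTreat). On LG09, EVM0005220 (1500321 to 1503268, minus strand) had 1.40, 1.30, 1.18 and 2.13 RPKM, and EVM0020760 (1506782 to 1511207, plus strand), 3513 bp away, had 127, 158, 157 and 139 RPKM. The values of the 2 genes did not overlap in either pair. Both pairs were chosen for their wide ratio, so this and the adjusted p above are descriptions. At the edge of the gap limit, EVM0020290 (LG07, 98803413 to 98817149, minus strand) had 15.1, 15.3, 16.2 and 9.55 RPKM. Its partner EVM0005256 (98822122 to 98827947, plus strand), 4972 bp away, had 289, 312, 270.4 and 281 RPKM.

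In some divergent pairs both genes were abundant. In 32 of the 104 pairs both had more than 30 RPKM on average, and in 1 pair both had less than 10. The pair with the highest lower gene was EVM0023079 (LG09, 9004756 to 9007369, minus strand, 4 exons) and EVM0016184 (9012091 to 9017978, plus strand, 6 exons), 4721 bp apart. EVM0023079 had 163, 182, 160.4 and 221 RPKM and EVM0016184 had 155, 156, 151 and 151 RPKM. The left gene was above the right in every library, by less than 1.5-fold, and the difference was not called (adjusted p = 0.117, edgeR).

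EVM0005669 (LG12, 93525169 to 93531609, minus strand) had 139, 154, 166 and 123 RPKM. EVM0007300 (93534555 to 93547993, plus strand), 2945 bp away, had 363, 372, 384 and 276 RPKM, with both genes lowest in replicate 4. EVM0018422 (LG03, 183159220 to 183161990, minus strand) had 638, 629, 564 and 476 RPKM. Its partner EVM0025634 (183163010 to 183175877, plus strand), 1019 bp away, had 104, 95.6, 97.0 and 96.8 RPKM. Both pairs passed the test for more than 2-fold (adjusted p = 0.0064 and 3.7e-05, edgeR glmTreat).

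The pairs described next, with EVM0023079 / EVM0016184 above, had the smallest ratio in their most unequal library, so they were alike in all 4. Other pairs had smaller mean ratios but differed more in a single library. EVM0023902 (LG11, 15696889 to 15706934, minus strand, 12 exons) had 27.9, 27.7, 28.5 and 25.2 RPKM. EVM0022342 (15711030 to 15725138, plus strand, 2 exons), 4095 bp away, had 20.4, 24.5, 24.3 and 18.5 RPKM. The left gene was higher in 4 of 4 libraries (1.25-fold, adjusted p = 0.027, edgeR). EVM0007964 (LG07, 90690026 to 90708766, minus strand) had 32.5, 29.9, 26.97 and 29.5 RPKM. EVM0019490 (90710880 to 90716574, plus strand), 2113 bp away, had 40.3, 41.1, 34.7 and 21.2 RPKM. The right gene was the higher in replicates 1 to 3 and the lower in replicate 4, and no difference was called (adjusted p = 0.43, edgeR).

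**Figure D5:**
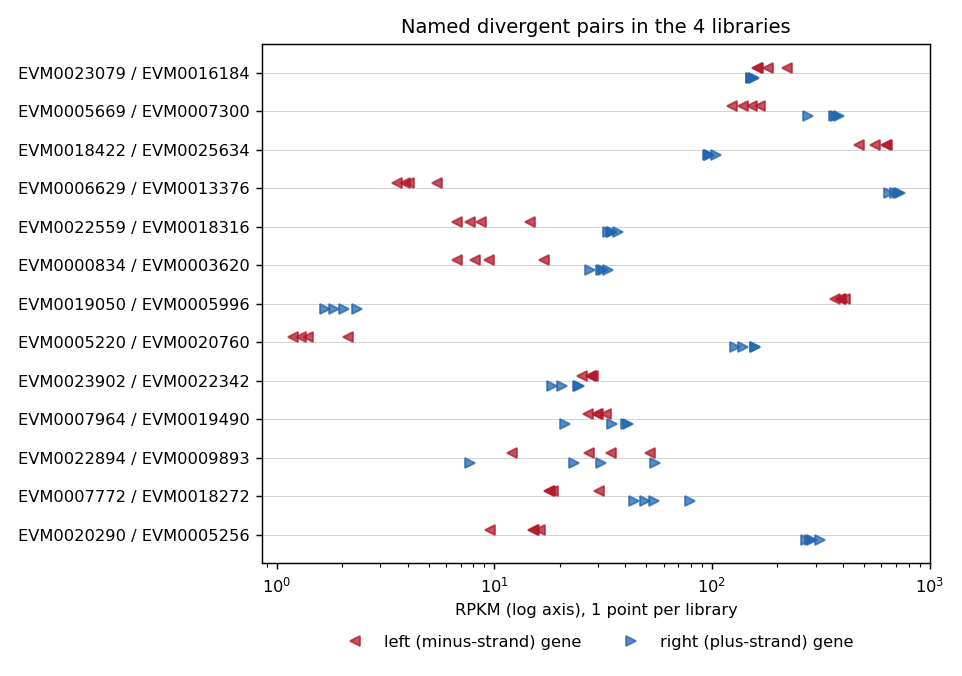
RPKM (log axis) of both genes of 13 divergent pairs named in the text, with 1 point per library; triangles pointing left are minus-strand genes and those pointing right plus-strand genes. The genes of EVM0006629 / EVM0013376, 171 bp apart, are separated by 166-fold, and those of EVM0022894 / EVM0009893 spread together over the libraries.

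The pairs whose genes resemble each other in exon number and length did not have like levels. They were named after their values were seen. EVM0026855 and EVM0009978 on LG03, 1191 bp apart, averaged 40.2 and 6.37 RPKM. EVM0012462 and EVM0020399 on LG09, 3014 bp apart, averaged 49.7 and 5.84 RPKM. No divergent pair held genes that shared a run of 4 or more exon lengths with each other. With some other annotated gene, 40 member genes in 38 pairs shared such a run, and in 8 of them that other gene was itself in another divergent pair. Pairs without such a gene numbered 106 of 144 divergent, 285 of 442 convergent and 392 of 537 same-strand pairs. Such genes were thus not particular to divergent pairs. No sequences were compared.

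Partners were not more alike than the neighbours on the other side. For 118 genes of divergent pairs the gene, its partner and the adjacent gene outside the pair were all detected, with the outer gene meeting the same exon and intron criteria. The correlation of levels was -0.0486 ± 0.0198 with the partner and 0.157 ± 0.045 with the outer neighbour (mean and SD over 4 libraries). The median absolute log2 ratio was 1.49 ± 0.05 and 1.497 ± 0.083. The partner was the closer in level in 43.0% ± 3.1 of cases. With outer neighbours at 0 to 5000 bp as well (64 genes), the partner was the closer in 38.7% ± 2.7. Outer neighbours on the same strand (24 genes) had a correlation of 0.437 ± 0.069 and convergent ones (40 genes) -0.0347 ± 0.0701. A gene can enter through both of its neighbours, so these cases are not independent.

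Divergent genes did not vary together between libraries as a rule. The deviation of a gene was its log2 CPM in a library minus its mean in the other 3. Spearman's correlation of the deviations of left and right gene over the 104 pairs was -0.0797, 0.252, -0.138 and -0.0232 in replicates 1 to 4. The sign changed between libraries, and the mean was 0.00284 ± 0.173. Convergent pairs had -0.0430 ± 0.0552 and same-strand pairs 0.148 ± 0.042, the same-strand value being above 0 in 4 of 4 libraries. Both genes of a divergent pair deviated in the same direction in 47.1%, 61.5%, 45.2% and 48.1% of pairs. Replicate 2 alone gave a share well above the others. In the 23 pairs with gaps of 0 to 1000 bp the share was 78.3% in replicate 2 and 56.5% in each other library. At these gaps the mean share was 62.0% ± 10.9 in divergent, 49.4% ± 4.9 in 129 convergent and 67.2% ± 7.5 in 67 same-strand pairs. The correlation of deviations was 0.0897 ± 0.235, 0.00138 ± 0.119 and 0.417 ± 0.157 in the same order. At 1001 to 5000 bp the same-strand correlation was 0.0807 ± 0.0309.

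Single pairs did move together. EVM0022894 (LG11, 12366148 to 12368693, minus strand, 6 exons) had 34.5, 52.2, 27.3 and 12.0 RPKM in replicates 1 to 4. EVM0009893 (12373191 to 12375459, plus strand, 6 exons), 4497 bp away, had 30.8, 54.6, 23.3 and 7.75 RPKM. Both were highest in replicate 2 and lowest in replicate 4, where they lay 1.61 and 2.13 below the mean of the other libraries on the log2 scale. Their levels were not called different (log2 ratio 0.23, adjusted p = 0.18, edgeR). EVM0007772 (LG11, 49378617 to 49389557, minus strand, 21 exons) had 18.6, 17.9, 18.1 and 30.3 RPKM. EVM0018272 (49390989 to 49392326, plus strand, 3 exons), 1431 bp away, had 54.2, 43.7, 49.5 and 79.6 RPKM. Both were highest in replicate 4, by 0.74 and 0.70 on the log2 scale. These pairs were chosen for their shared deviation, which is therefore a description, and 249 bp of exon sequence in EVM0018272 rest on 277 to 441 counts per library.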

How the data were processed

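The 4 libraries form 1 group. The authors deposited whole read counts per gene made with featureCounts 2.0.0, per the file headers: reads were assigned to exons on the reverse strand, with multi-mapped reads given to every place they matched. Trimmomatic 0.36 and HISAT2 2.0.5 came before, per the submitters' processing notes. The authors also deposited RPKM values, which equalled counts scaled by exon length and library total within 1e-06 for 28695 genes. Members, comparisons and named pairs were chosen with earlier results of these data known. Named were the pairs with the highest lower gene (3), the shortest gap (3), the widest mean level ratio (3; both genes detected), the smallest ratio in the most unequal library (3), the highest gene beside a partner without count (2), the largest shared deviation (2), and those at the gap limit. Pairs were the features of an edgeR 4.0.16 fit (R 4.3.3) on left and right counts, with offsets for library total and exon length, library as block and Benjamini-Hochberg adjustment at 0.05. In data simulated for this comparison (5273 pairs), 100% of 100 planted 8-fold and 90.0% of 100 planted 2-fold differences were called, and 0.138% of the others. glmTreat called 100%, 1.00% and 0%. The planted 2-fold differences lay at its threshold, so few calls were built in. The simulation gave every pair the same spread between libraries and equal levels to all pairs without a planted difference. Of the real pairs 84.2% were called different, so these rates need not hold for the data. Alternatives used limma 3.58.1 and DESeq2 1.42.0. Other values came from Python 3.11.15 and scipy 1.17.1. Depth was 22252534 to 25434148 counts, so 3 counts correspond to 0.118 to 0.135 CPM. No sequence was used here.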

Additional observations from a re-analysis of the deposited data

Results flagged for a closer look

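A single library lay far from the remaining ones in 5 of 63 values examined, and in 3 of these it was replicate 4. Chance gives about 1 in 20 independent values, but these values overlap and come in part from pairs chosen by their levels or shared deviation. EVM0007772, below, was chosen for a shared deviation that was largest in replicate 4. The tally therefore cannot be read against chance. EVM0007772 had 30.3 RPKM in replicate 4, against 17.9 to 18.6 RPKM in the others. EVM0020290 had 9.55 RPKM in replicate 4, against 15.1 to 16.2 RPKM. The log2 ratio of EVM0007964 to its partner EVM0019490 was 0.48 in replicate 4 and -0.46 to -0.31 in the others. EVM0028176 had 420 RPKM in replicate 2, against 371 to 375 RPKM. The share of divergent pairs within 2-fold was 27.9% in replicate 1 and 28.8% in each other library, a difference of 1 pair.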

How the results depend on the processing

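Of 150 alternatives over 11 results, 95 left the value within the spread over libraries or within 1.5 times the count. Some of these 95 could not move the value, such as rank correlations under log2(RPKM + 1) or under TMM and DESeq2 scaling. Results are named here in the order joint detection, its difference from convergent and same-strand pairs (percentage points), Spearman's correlation of levels, its difference from convergent and same-strand pairs, and the median absolute log2 ratio. The cause of a move was not tested. Leaving out 1 library gave joint detection of 72.2% to 72.9%, differences of -9.04 to -7.75 and -1.80 to 0.344, correlations of -0.0471 to -0.0180, with differences of 0.00865 to 0.0353 and -0.106 to -0.0836, ratios of 1.48 to 1.51, shared deviation of -0.0702 to 0.0392, 85 to 97 pairs called different and 59 to 68 more than 2-fold. At 10 counts per library, joint detection was 75% and the correlation -0.0114. At 1 count the values were 80.6%, -9.96, -3.96, 0.00867, 0.0485, -0.0514 and 1.65. With gaps of 0 to 1000 bp they were 79.3%, -3.91, 2.90 and a correlation of -0.101, -0.366 from same-strand pairs, 1.75, and 23 and 16 calls among 23 pairs. With gaps of 0 to 2000 bp they were 75.8%, correlation differences of -0.0224 and -0.221, 1.68, and 43 and 32 calls among 47 pairs. Without the exon and intron rule they were 41.7%, -19.8, -9.06, a correlation of 0.0242, 1.63, and 160 and 113 calls among 179 pairs. With CPM in place of RPKM the correlation was -0.101, its differences -0.0961 and -0.168, and the ratio 1.95. After removal of a fit on gene structure, the correlation differed from that of convergent pairs by -0.0129 and the ratio was 1.55. Chosen after seeing the data were 3 others. Without LG05 joint detection was 76.3%, with differences of -5.94 and 2.93. Without genes sharing exon runs the values were 68.9% and -13.7 from convergent pairs, then -0.138, -0.0829, -0.214 and 1.57. On unplaced contigs they were 75.9%, 4.48, 9.19, 0.207, 0.240 and 0.134, with shared deviation of -0.176, on 29 pairs. So the sign of the difference in joint detection from same-strand pairs, and on contigs from convergent pairs, is not fixed, and the highest correlation of levels in divergent pairs over these alternatives was 0.207. TMM and DESeq2 scaling cannot change rank correlations or blocked ratios. DESeq2 called 94 pairs, limma 94 and 60 beyond 2-fold, and the fit with no replicate block 91 and 63. No paired analysis of groups was possible because there is only 1 group.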

Other observations

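On the linkage-group sequence outside the 6 regions, 149 divergent pairs met the same criteria for gap, exons and introns. In 0 of them were both genes detected, in 6 a single gene was, and in 124 neither gene had a count in any library. These parts of the annotation received few reads, and the values say nothing about expression of the genes. Divergent pairs that overlapped numbered 6 in the regions among genes meeting the exon and intron criteria, and both genes were detected in 0 of them.

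Beyond 5000 bp, divergent pairs had wider level differences than within it, where the median absolute log2 ratio was 1.49 ± 0.05 and the correlation of levels -0.0443 ± 0.0242. At gaps of 5001 to 20000 bp, 67.0% of 197 pairs were jointly detected, with a correlation of levels of 0.101 ± 0.009 and a median absolute log2 ratio of 1.75 ± 0.07. At wider gaps these values were 72.0% of 418 pairs, 0.0274 ± 0.0269 and 1.82 ± 0.04 (SD over 4 libraries). Convergent pairs at such wide gaps had 56.2% of 217 pairs jointly detected and a correlation of 0.274 ± 0.041. The median absolute log2 ratio of convergent pairs was 1.61 ± 0.05 at 5001 to 20000 bp and 1.45 ± 0.05 at wider gaps. In same-strand pairs it was 1.62 ± 0.05 and 1.25 ± 0.01, so beyond 5000 bp the ratio was wider in divergent pairs only.

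The members with the longest shared exon run lay on LG12: EVM0024526, with 23 exons, shared 21 consecutive exon lengths with EVM0015295 on an unplaced contig. Their mean levels were 74.0 and 45.4 RPKM. The run was found from exon lengths and no sequences were compared.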
